A study of Mus musculus with 175 samples.

Results

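The genes examined were the 2 GFI1-type transcriptional repressors, Gfi1 and Gfi1b, and 4 genes of the corepressor complex that they recruit, namely Kdm1a, Rcor1, Hdac1 and Hdac2. They were taken by their symbols in the deposited gene annotation, and all 6 were found among 49585 mouse features. The data are single-cell RNA sequencing counts of E14.5 mouse fetal liver progenitors, made by a Smart-Seq2 type protocol in which full-length cDNA of each cell is amplified and no molecular identifiers are used. The animals were of a C57BL/6 background crossed with ICR and carried a reporter in Runx1, a transcription factor required for definitive blood formation, in which human CD4 (hCD4) marks transcription from the P2 promoter. The genotype label reads Runx1 P2-GFP::P2-hCD4/+, whereas the protocol label reads P1-GFP::P2-hCD4/+. Livers of 2 litters were pooled before sorting.

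Sorted cells were megakaryocyte-erythroid progenitors (MEPs, CD34-) and common myeloid progenitors (CMPs, CD34+), both sorted as Lin- SCA1- C-KIT+ CD16/CD32 low, CD41- and CD150+ according to the study, each divided into P2-hCD4- (P2-) and P2-hCD4+ (P2+) cells. The CMP labels say low and high, which were read as P2- and P2+. After the study's cell filters 172 of 175 cells remained, of which 103 were MEPs (56 P2- and 47 P2+) and 69 were CMPs (27 P2- and 42 P2+). Since the livers were pooled, each population is 1 sample without a replicate. There is therefore no test between populations, and every interval below is a 95% interval that covers counting error of the reads or cells only. One P2- CMP carries a subtype label of MEP, and the plate of a cell is not given in the labels.

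GFI1 and GFI1B are closely related zinc-finger proteins that bind the same DNA sequence and repress genes through a short amino-terminal stretch, the SNAG domain. This domain imitates a histone tail and so docks to LSD1, the histone demethylase encoded by Kdm1a. LSD1 is held together with the deacetylases HDAC1 and HDAC2 by the scaffold CoREST, encoded by Rcor1. GFI1B is known for its role in erythroid and megakaryocytic cells, and GFI1 for its role in stem cells, lymphocytes and granulocytes. In the embryo both act below RUNX1 when blood cells emerge from endothelium.

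The coding starts of Gfi1 and Gfi1b are shown because they encode the SNAG domain through which both repressors reach the other 4 genes. They were read from GENCODE M21 transcripts on GRCm38, both on the minus strand and both within 1 coding exon, at chr5:107723779-107723838 for Gfi1 and chr2:28615317-28615376 for Gfi1b. Capitals mark bases that are the same in both genes.
Gfi1: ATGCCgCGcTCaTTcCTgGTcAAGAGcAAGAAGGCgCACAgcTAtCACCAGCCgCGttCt
Gfi1b: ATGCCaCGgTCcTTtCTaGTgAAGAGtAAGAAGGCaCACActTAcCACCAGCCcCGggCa
Of these 60 bases 45 were identical, and 13 of the 15 differences lay at the third position of a codon. The Gfi1 start shown is carried by 2 of 3 complete coding transcripts, the other transcript beginning further upstream.

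The promoter of Gfi1b is shown because Gfi1b was the member whose reads in CMPs went most closely with those of a GATA factor, as described below. The window is chr2:28621933-28622232 on the minus strand of GRCm38.p6 (RefSeq), 250 bases before to 50 bases after the start. Capitals mark matches, on either strand, to the GATA letters TGATAA or AGATAA and to AATCA, the core of the sequence that GFI1 and GFI1B bind.
Gfi1b promoter: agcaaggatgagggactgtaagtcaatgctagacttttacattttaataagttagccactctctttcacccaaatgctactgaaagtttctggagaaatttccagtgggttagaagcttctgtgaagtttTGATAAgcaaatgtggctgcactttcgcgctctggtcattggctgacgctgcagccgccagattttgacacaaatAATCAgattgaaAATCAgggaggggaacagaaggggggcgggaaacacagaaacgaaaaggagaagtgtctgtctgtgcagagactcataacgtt
The GATA match begins 120 bases upstream of the start, and the AATCA matches begin 45 and 33 bases upstream. Of 32851 promoter windows of this length, 18.6% held a GATA match and 37.02% an AATCA match. Windows were present for 5 of the 6 members, and those of Gfi1, Kdm1a, Rcor1 and Hdac2 held neither. RUNX letters (TGTGGT or TGCGGT, either strand), found in 22.4% of all windows, were present in the Hdac2 window and not in those of the other 4. A match is a description of these letters and not a measured binding site.

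Reads on mouse genes ranged from 295064 to 1540631 per cell, and the 4 populations summed to 30606262, 31573710, 18334696 and 36351033 reads in the order P2- MEP, P2+ MEP, P2- CMP and P2+ CMP, which is kept throughout. The share of counted reads on the ERCC spike-in RNA differed between them, with medians over cells of 1.46%, 2.48%, 2.14% and 1.73%. Erythroid marker genes summed to 1928, 887, 762 and 425 pooled CPM (counts scaled to 1000000 reads on mouse genes), and granulocyte/monocyte markers to 9.80, 47.9, 341.9 and 596 CPM. Macrophage markers stayed between 1.27 and 8.84 CPM, with Adgre1, C1qa, C1qb and Cd163 at 0 in every population, and hepatocyte markers between 11.04 and 38.2 CPM. No cell had the same counts as another cell.

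Gfi1, the repressor of the granulocytic and lymphoid side, had reads in CMPs and none in MEPs. In P2- MEPs and in P2+ MEPs all cells were at 0. In P2- CMPs the lowest and the median cell were at 0 and the highest at 282.3 CPM, and in P2+ CMPs the lowest and the median cell were at 0 and the highest at 182 CPM. Gfi1 was thus carried by a minority of cells, whose median was 84.6 CPM in P2- and 81.8 CPM in P2+ CMPs. After each cell was thinned to 100000 reads, to make depths equal, Gfi1 was detected in none of the MEPs (56 P2- and 47 P2+), in 5 of 27 P2- CMPs (18.5%, exact Clopper-Pearson interval 6.30% to 38.1%) and 11 of 42 P2+ CMPs (26.2%, interval 13.9% to 42.04%). Taking 3 cells as the limit that a count of 0 allows, 0 of 103 MEPs allows a share of up to 2.91% of cells with a read. The exact Clopper-Pearson limits were 6.38% for 0 of 56 P2- and 7.55% for 0 of 47 P2+ MEPs. By flow cytometry of other embryos, the study saw a Gfi1-GFP reporter in a small part of CD41- CD150+ MEPs and a larger part of such CMPs. A cell without a read is therefore not shown to lack expression.

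Pooled over cells, Gfi1 was at 21.3 CPM in P2- CMPs (391 reads, Poisson interval 19.3 to 23.5) and 21.1 CPM in P2+ CMPs (767 reads, interval 19.6 to 22.6). Between the CMP populations this is a log2 ratio of -0.02, with an interval of -0.19 to 0.16. This ratio rested on a single P2- CMP that held 46.5% of the reads, and without the cell of highest CPM in each population it was 0.61. Against 0 reads in the MEPs, set to 3 reads per population, Gfi1 was at least 217.6-fold higher in CMPs than in MEPs among P2- cells and at least 222.1-fold among P2+ cells. Without the CMP of highest Gfi1 CPM these bounds were 120.5-fold and 189.99-fold. The Gfi1 exons share 3.17% of their bases with A430072P03Rik on the opposite strand, where counting without strand leaves reads unassigned.

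A pooled level of this size was common in CMPs, and few genes at such a level had no read in MEPs. Of 6148 genes with at least the pooled CPM of Gfi1 in both CMP populations, 15 had no read in any MEP, Gfi1 included. The others were 4930555A03Rik, Ablim1, BC035044, Clec14a, Clec4e, Cox4i2, Emcn, Gm10384, Gpr65, Lsp1, Ltb, Postn, Procr and Slfn2, which were found by this rule after their values were seen. This rule was set by the values of Gfi1 itself. The count does not show Gfi1 to be unusual among genes read in few cells. Emcn encodes an endothelial sialomucin and Procr a receptor known as a marker of stem cells.

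Gfi1b, the erythroid and megakaryocytic repressor, was present in all 4 populations and higher in MEPs. In P2- MEPs it ranged from 0 to 1450 CPM with a median of 149 CPM, and in P2+ MEPs from 0 to 775 CPM with a median of 139 CPM. In P2- CMPs it ranged from 0 to 793 CPM with a median of 39.97 CPM, and in P2+ CMPs from 0 to 531 CPM with a median of 74.6 CPM. The ranges of single cells overlapped entirely, and the populations differed in their medians and in the share of cells at 0. Gfi1b was detected in 50 of 56 P2- MEPs (89.3%, interval 78.1% to 96.0%), 38 of 47 P2+ MEPs (80.9%, 66.7% to 90.9%), 16 of 27 P2- CMPs (59.3%, 38.8% to 77.6%) and 27 of 42 P2+ CMPs (64.3%, 48.03% to 78.4%). The study saw a Gfi1b-GFP reporter in all CD41- CD150+ MEPs and CMPs, so that cells without a Gfi1b read are not shown to lack expression.

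Pooled Gfi1b was at 182, 180, 82.6 and 93.6 CPM. The MEP populations differed by a log2 ratio of -0.02 (interval -0.07 to 0.04), and P2+ CMPs were above P2- CMPs by 0.18 (0.09 to 0.27). CMPs were below MEPs by a log2 ratio of -1.14 (-1.22 to -1.06) among P2- cells and -0.94 (-1.004 to -0.88) among P2+ cells. Among P2- cells this passed 2-fold, but with every cell given the same weight the log2 ratio was -0.88, which did not.

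**Figure D1:**
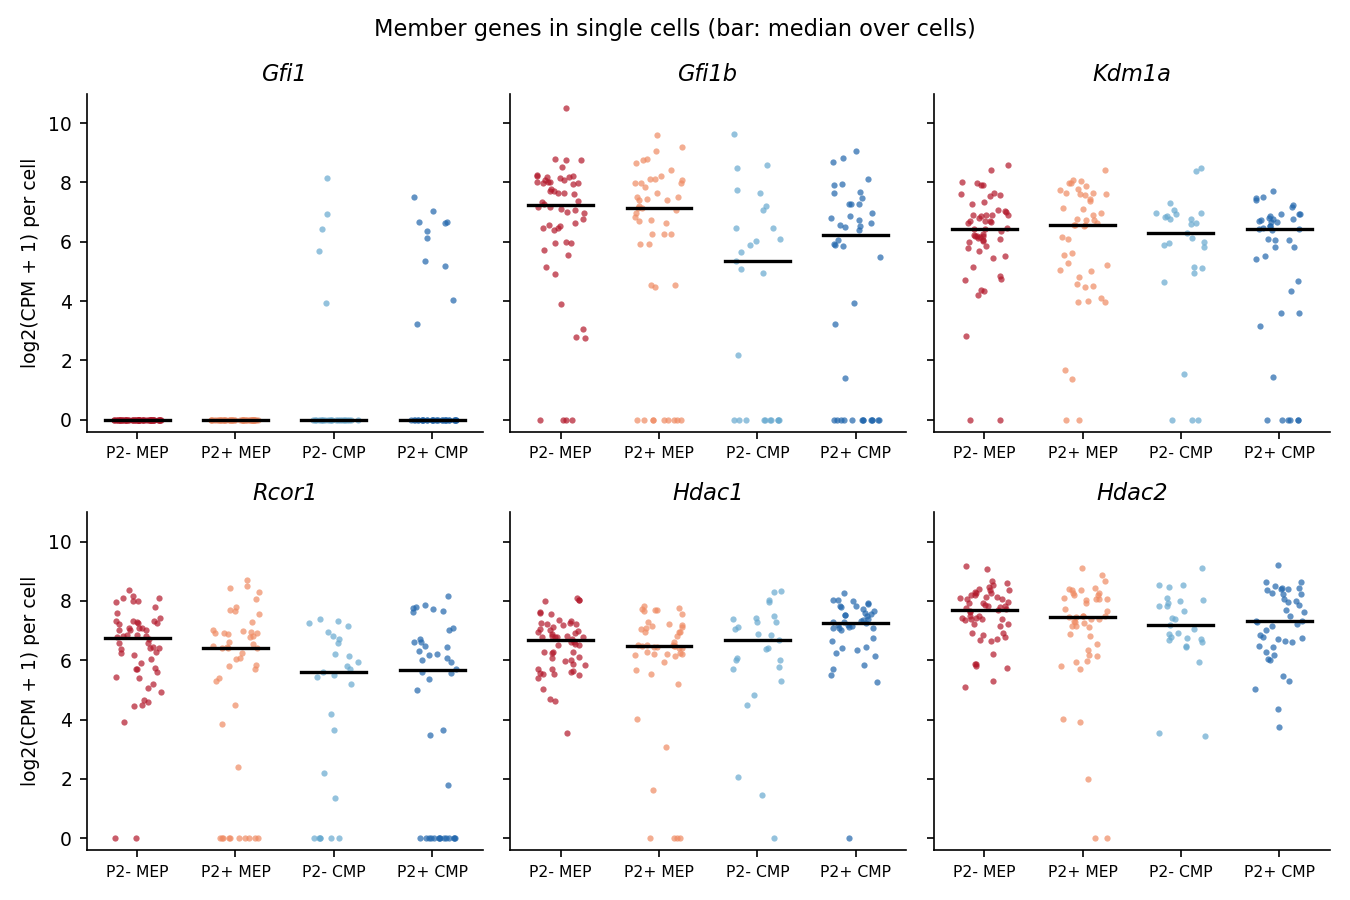
Level of each member gene in every cell, as log2(CPM + 1), in the 4 populations (1 point per cell, bar at the median over cells). Gfi1 is at 0 in all 103 MEPs and in most CMPs, Gfi1b has its highest medians in both MEP populations, and Hdac2 is above 0 in all but 2 cells, both of them P2+ MEPs.

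Kdm1a, the demethylase LSD1, differed little between populations. It ranged from 0 to 387 CPM with a median of 85.7 CPM in P2- MEPs and from 0 to 342.5 CPM with a median of 94.6 CPM in P2+ MEPs. In P2- CMPs it ranged from 0 to 360 CPM with a median of 76.9 CPM and in P2+ CMPs from 0 to 209.4 CPM with a median of 84.6 CPM. Each of these medians lay between the lower and upper quartiles of the other 3 populations. Detection fell between 85.2% (23 of 27 P2- CMPs) and 92.9% (52 of 56 P2- MEPs). Pooled levels were 102, 104, 95.4 and 81.0 CPM, and the lowest of them, in P2+ CMPs, was below P2- CMPs by a log2 ratio of -0.24 (-0.32 to -0.15) and below P2+ MEPs by -0.37 (-0.44 to -0.29).

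Rcor1, the CoREST scaffold, was the corepressor gene that differed most. It ranged from 0 to 330 CPM with a median of 106 CPM in P2- MEPs and from 0 to 417 CPM with a median of 85.2 CPM in P2+ MEPs. In P2- CMPs it ranged from 0 to 167 CPM with a median of 47.3 CPM and in P2+ CMPs from 0 to 287.1 CPM with a median of 49.5 CPM. Cells without a read were few in P2- MEPs and common elsewhere, and Rcor1 was detected in 53 of the 56 P2- and 36 of the 47 P2+ MEPs, and in 19 of the 27 P2- and 26 of the 42 P2+ CMPs. Pooled levels were 119, 89.4, 56.1 and 65.0 CPM. CMPs were below MEPs by a log2 ratio of -1.08 (-1.18 to -0.98) among P2- cells and -0.46 (-0.54 to -0.38) among P2+ cells. With every cell given the same weight the first of these was -0.98, just inside 2-fold.

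Hdac1 and Hdac2 encode closely related deacetylases that act in the same complexes. Hdac1 was highest in P2+ CMPs. It ranged from 10.8 to 273.3 CPM with a median of 102 CPM in P2- MEPs, and from 0 to 229.4 CPM with a median of 87.6 CPM in P2+ MEPs. In P2- CMPs it ranged from 0 to 325.6 CPM with a median of 102 CPM and in P2+ CMPs from 0 to 308.4 CPM with a median of 153 CPM. The P2+ CMPs stood above the others by their median and not by their highest cells. Pooled levels were 107.8, 98.2, 124 and 146 CPM, and P2+ CMPs were above P2+ MEPs by a log2 ratio of 0.57 (0.50 to 0.63).

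Hdac2 was the most evenly detected member. It ranged from 33.6 to 576 CPM with a median of 208.8 CPM in P2- MEPs and from 0 to 552 CPM with a median of 173 CPM in P2+ MEPs. In P2- CMPs it ranged from 9.84 to 550 CPM with a median of 145 CPM and in P2+ CMPs from 12.5 to 599 CPM with a median of 158 CPM. The highest cells were alike in all populations. Hdac2 was detected in every P2- MEP, P2- CMP and P2+ CMP and in 44 of 47 P2+ MEPs, and its pooled levels were 210, 189, 174 and 204 CPM.

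Levels can be set beside each other between genes only per length of exon. Pooled over cells, Gfi1b was the highest member per length in all 4 populations, at 99.4, 98.3, 45.2 and 51.2 pooled CPM per kb of exon shared with no other gene. Hdac2 came second, at 46.9, 42.4, 38.8 and 45.5 CPM per kb, followed by Hdac1 at 31.3, 28.5, 36.002 and 42.3 CPM per kb. In P2- CMPs the first place of Gfi1b rested on a single cell that held 22.4% of its reads. Without the cell of highest CPM of each gene, Gfi1b was at 35.9 and Hdac2 at 36.97 CPM per kb there. By the median cell Gfi1b was below both deacetylase genes in P2- CMPs, at 21.8 against 32.5 (Hdac2) and 29.5 (Hdac1) CPM per kb, and below Hdac1 in P2+ CMPs, at 40.8 against 44.5 CPM per kb. Rcor1 and Kdm1a came next. Rcor1 had 21.1, 15.9, 9.97 and 11.5 CPM per kb, and Kdm1a had 19.7, 20.2, 18.4 and 15.6 CPM per kb. Rcor1 was above Kdm1a in P2- MEPs and below it in the other 3 populations. Gfi1 was the lowest in every population, at 0 in MEPs and 6.91 and 6.84 CPM per kb in P2- and P2+ CMPs. Without the cell of highest CPM these Gfi1 levels in CMPs were 3.83 and 5.85 CPM per kb. The Gfi1b gene lies at chr2:28609450-28621982 and the Gfi1 gene at chr5:107716657-107726036, both on the minus strand. Kdm1a lies at chr4:136550540-136602723 and Hdac1 at chr4:129516104-129542713 on the minus strand, and Rcor1 at chr12:111039351-111115901 and Hdac2 at chr10:36974544-37001889 on the plus strand (GRCm38, GENCODE M21).

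**Figure D2:**
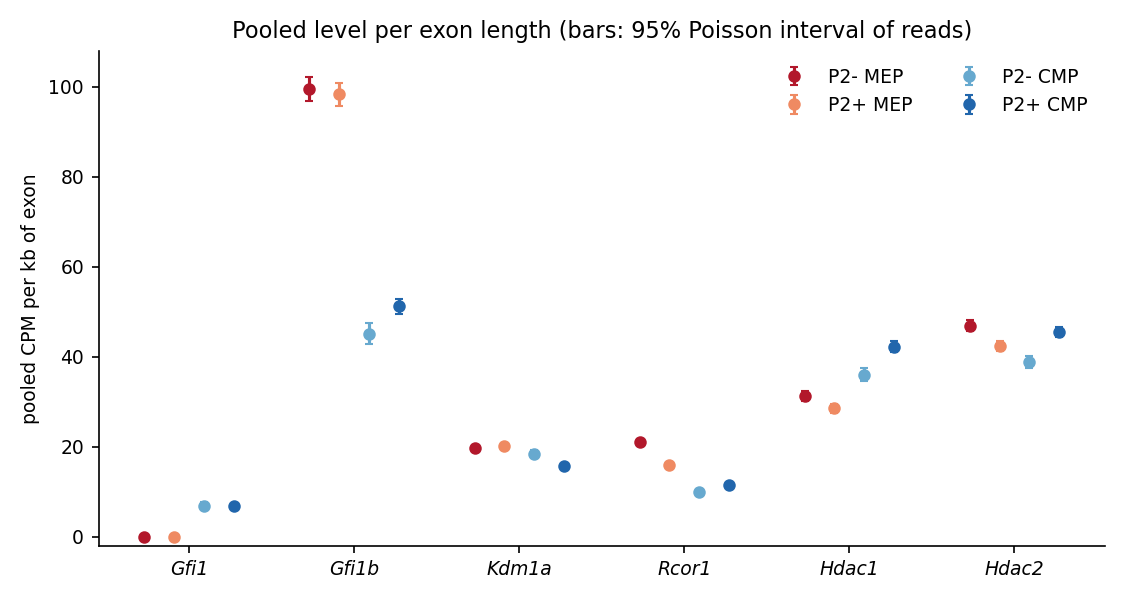
Pooled CPM per kb of unshared exon (y axis) for each member in the 4 populations, with 95% Poisson intervals of the reads, which cover counting error only. Gfi1b reaches 99.4 in P2- MEPs and 45.2 in P2- CMPs, while Gfi1 is at 0 in both MEP populations.

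The first question of the design was what separates P2+ from P2- cells of the same compartment. A ratio was counted as a difference when it reached 2-fold in pooled CPM, among genes with at least 10 reads over both populations. In MEPs 0 of 5 measured members were past 2-fold in either direction, where 20.4% of 15769 genes were higher in P2+ MEPs and 12.5% lower. In CMPs 0 of 6 members were past 2-fold, where 17.4% of 16107 genes were higher in P2+ CMPs and 14.7% lower. The members' log2 ratios lay between -0.41 and 0.04 in MEPs and between -0.24 and 0.23 in CMPs, and the medians over all genes were 0.06 and -0.00. Rcor1 was the member farthest from 0 in MEPs, at -0.41 (-0.48 to -0.34), or -0.15 when every cell had the same weight. Hdac1 and Hdac2 were both at -0.13 and -0.15 in MEPs and both at 0.23 in CMPs.

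The second question was what separates CMPs from MEPs. Among P2- cells 1 of 6 members, Gfi1, was past 2-fold higher in CMPs, and 2 of 6, Gfi1b and Rcor1, were past 2-fold lower. Of 15631 genes 25.8% were higher and 15.1% lower. Among P2+ cells Gfi1 was again past 2-fold higher and 0 of 6 were lower, where 23.2% of 16572 genes were higher and 16.5% lower. The comparisons share populations, so that a value of 1 population enters 2 of the ratios.

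**Figure D3:**
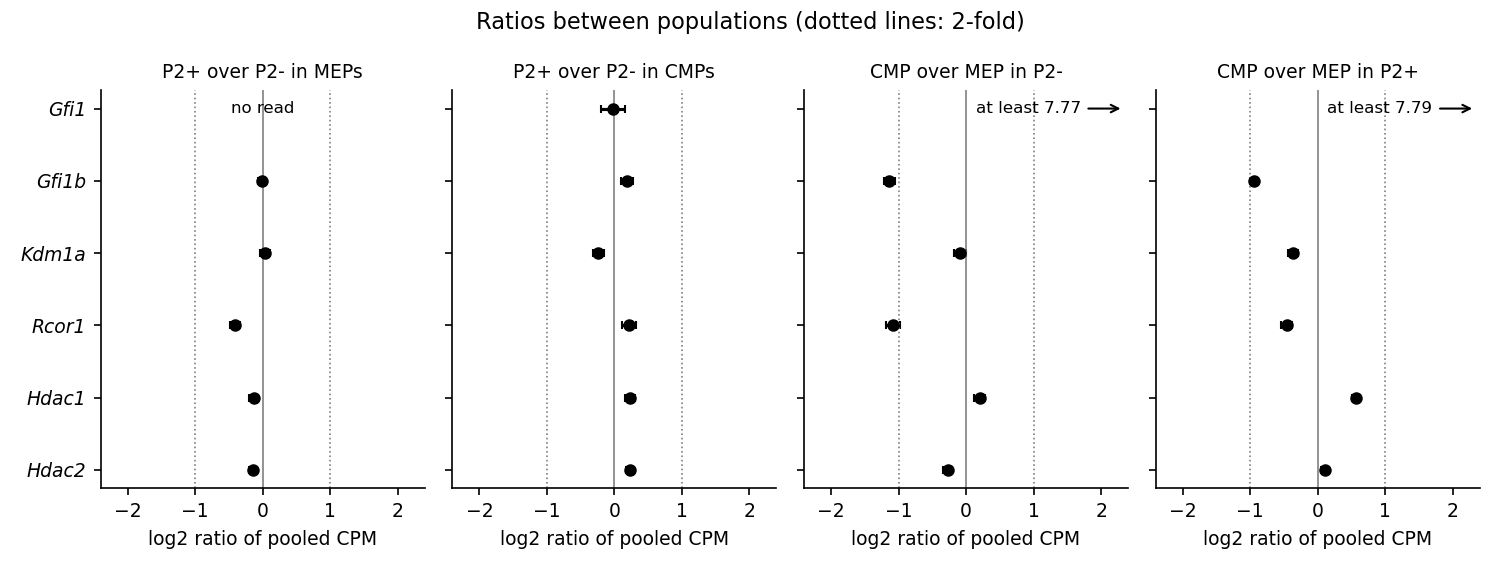
Log2 ratio of pooled CPM (x axis) of each member in the 4 comparisons, with 95% intervals that cover counting error only and dotted lines at 2-fold. Gfi1 appears as a bound in CMP over MEP (at least 7.77 and at least 7.79), and Gfi1b lies at -1.14 and -0.94 there.

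The CMPs with Gfi1 reads were examined one by one, since they numbered 16 of 69. In P2- CMPs they had 182, 86, 85, 29 and 9 Gfi1 reads. In P2+ CMPs they had 123, 123, 113, 101, 94, 74, 44, 41, 36, 12 and 6 Gfi1 reads. Most of these cells had far more than 1 read. The 3 P2- CMPs with the most Gfi1 reads had 0 Gfi1b reads, and the P2- CMP with 9 Gfi1 reads had 85 Gfi1b reads. Among the P2+ CMPs 5 of the 11 had 0 Gfi1b reads before thinning, and the highest Gfi1b level beside Gfi1 was 97.4 CPM.

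Few CMPs had Gfi1 reads, so that most CMPs with Gfi1 or Gfi1b would have reads of only 1 repressor in any case. At equal depth Gfi1b was detected in 1 of 5 P2- and 4 of 11 P2+ CMPs with Gfi1, and in 15 of 22 and 23 of 31 without it. After thinning, 1 of 27 P2- CMPs had both, 4 had Gfi1 without Gfi1b, 15 had Gfi1b without Gfi1 and 7 had neither. Of 42 P2+ CMPs 4 had both, 7 had Gfi1 without Gfi1b, 23 had Gfi1b without Gfi1 and 8 had neither. Spearman's rho over cells was -0.36 in the 27 P2- CMPs and -0.43 in the 42 P2+ CMPs, as a description of cells of the same pool. Without thinning the cells with both numbered 2 and 6, and with at least 5 reads of each gene 0 and 2.

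All 16 CMPs with Gfi1 had reads of Mpo, the myeloperoxidase of granulocyte precursors, and of Fli1, an ETS factor of megakaryocytes and stem cells, but Fli1 also had reads in 18 of 22 P2- and 28 of 31 P2+ CMPs without Gfi1. Spi1, which encodes the myeloid factor PU.1, was detected in 4 of 5 P2- and 11 of 11 P2+ CMPs with Gfi1. Gata2, a GATA factor of stem and progenitor cells, was detected in 4 of 5 P2- and 7 of 11 P2+ CMPs with Gfi1, and in 21 of 22 and 28 of 31 CMPs without it. Tal1, the partner of GATA1, was detected in 1 of 5 and 6 of 11 with Gfi1, and in 17 of 22 and 20 of 31 without it. Irf8, a factor of monocytes, was detected in 1 of 5 and 4 of 11 with Gfi1, and in 3 of 22 and 10 of 31 without it. Cebpa, a granulocytic factor, was detected in 0 of 5 and 0 of 11 with Gfi1, and in 3 of 22 and 1 of 31 without it. Klf1, the erythroid factor, was also detected in 0 of 5 and 0 of 11, beside 14 of 22 P2- and 2 of 31 P2+ CMPs without Gfi1. Gata1 was detected in 1 of 5 P2- and 4 of 11 P2+ CMPs with Gfi1, beside 14 of 22 and 14 of 31 without it. In CMPs without Gfi1, Mpo was detected in 14 of 22 P2- and 29 of 31 P2+ cells, and Spi1 in 15 of 22 and 28 of 31. Several marker lists were higher in the CMPs, as Gfi1 was. Granulocyte/monocyte, stem and multipotent, endothelial, mast and basophil, lymphoid and hepatocyte markers all had higher summed levels in both CMP populations than in either MEP population. Mast and basophil markers summed to 0.327, 2.69, 72.8 and 34.2 CPM, and lymphoid markers to 0.0327, 1.11, 16.7 and 10.5 CPM. Of the 10 granulocyte/monocyte genes 3 had a read in P2- MEPs, 8 in P2+ MEPs and 9 in each CMP population, and over single cells their sum ranged from 0 to 146, 0 to 515, 0 to 1069 and 74.8 to 1678 CPM. Of these markers Ly86 was at 0 in every population, and the part of such cells in the Gfi1 values was not tested. According to the study, the sort took cells low for CD16/CD32 and without lineage surface markers such as GR1, B220, CD3E, CD127 and TER119. Whether cells of these lineages remained was not tested.

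The corepressor genes were present in most CMPs, with or without Gfi1. Kdm1a was detected in 3 of 5 P2- and 11 of 11 P2+ CMPs with Gfi1, Rcor1 in 4 of 5 and 6 of 11, Hdac1 in 4 of 5 and 11 of 11, and Hdac2 in all 16. In CMPs without Gfi1, Kdm1a was detected in 20 of 22 P2- and 25 of 31 P2+ cells and Rcor1 in 15 and 20. Hdac1 was detected in 21 and 30 of them and Hdac2 in all. All 4 corepressor genes were detected together in 51 of the 56 P2- and 29 of the 47 P2+ MEPs, and in 15 of the 27 P2- and 22 of the 42 P2+ CMPs. Rcor1 was the corepressor gene most often without a read in P2+ MEPs and in both CMP populations, and Kdm1a in P2- MEPs. The whole set of 6 members was detected in 3 cells, all P2+ CMPs.

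Gfi1b in CMPs went with Gata1, the erythroid and megakaryocytic GATA factor. In P2- CMPs 15 cells had both, 11 had neither, 1 had Gfi1b without Gata1 and 0 had Gata1 without Gfi1b, with a Spearman's rho of 0.79 over 27 cells. In P2+ CMPs 16 had both, 13 neither, 11 Gfi1b without Gata1 and 2 Gata1 without Gfi1b, with a rho of 0.63 over 42 cells. In MEPs, where every cell had Gata1, rho was 0.20 in P2- cells and -0.02 in P2+ cells. Cells with Gfi1b and no Gata1 were thus seen mainly among P2+ CMPs.

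Klf1 followed a different course. In P2- CMPs 14 cells had Gfi1b and Klf1, 11 neither, 2 Gfi1b without Klf1 and 0 the reverse (rho 0.72). In P2+ CMPs 2 cells had both, 15 neither, 25 Gfi1b without Klf1 and 0 the reverse (rho 0.28). Most P2+ CMPs, with or without Gfi1b, were thus without reads of the erythroid factor. Gfi1b and Spi1 ran in opposite directions in CMPs, with a rho of -0.57 in P2- and -0.50 in P2+ cells, although 24 of 42 P2+ CMPs had reads of both.

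**Figure D4:**
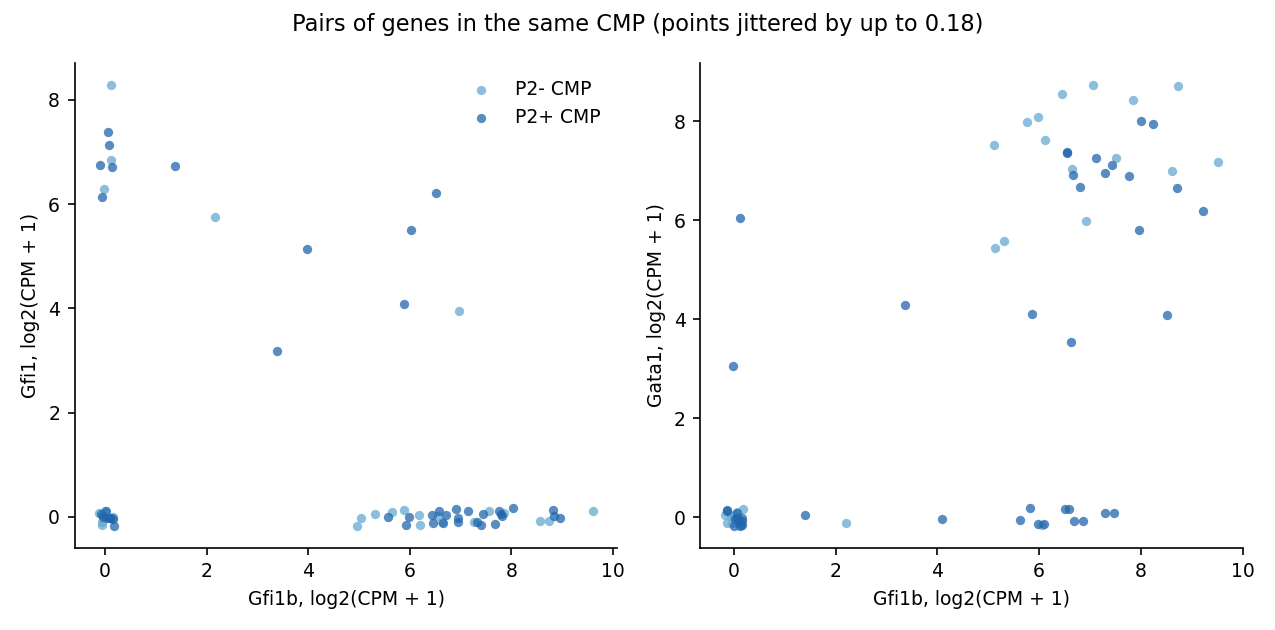
Levels of pairs of genes in the same CMP, as log2(CPM + 1), with Gfi1b on the x axis and Gfi1 (left) or Gata1 (right) on the y axis (1 point per cell, jittered). Most points of the left panel lie along an axis, while 15 P2- and 16 P2+ CMPs had reads of both Gfi1b and Gata1 after thinning.

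Genes whose pattern was most like that of a repressor were ranked by Spearman's rho, averaged over the populations in which the repressor varied. For Gfi1b, 7992 genes were compared over 172 cells of 4 populations, and the highest were Gata1 (mean rho 0.40), Rabgap1l (0.36), Slc14a1 (0.34), Cited4 (0.33) and Mfsd2b (0.33). Slc14a1 encodes the urea transporter of red cells. For Gfi1, 8014 genes were compared over the 69 CMPs, and those among the highest included Neto2 (0.50), Ifitm1 (0.49), Luzp1 (0.46) and Man2b1 (0.45). Cells of 1 population share a pool, and such rho are weak in sparse counts.

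Of the factors that act upstream of Gfi1 and Gfi1b, Runx1 and Gata1 ran in opposite directions over the populations. Runx1 was at 23.4, 56.98, 71.5 and 156 pooled CPM, so that P2+ cells were above P2- cells by a log2 ratio of 1.29 in MEPs and 1.12 in CMPs. This is the gene whose P2 promoter drives the reporter. Gata1 was at 265.9, 237.8, 103 and 43.6 CPM. Gata1 was lower in P2+ than in P2- CMPs by a log2 ratio of -1.24 (-1.33 to -1.14), while Gfi1b was at 0.18 in the same comparison. Tal1, the partner of GATA1, was at 145, 155, 74.6 and 48.6 CPM, and Fli1 was at 7.29, 79.3, 106 and 90.7 CPM. Of 12 genes of the list with a read in both MEP populations, 3 were past 2-fold higher and 0 lower in P2+ over P2- MEPs. Of all such genes 15.66% were higher and 8.62% lower. A further gene had no read in P2- MEPs, so that its direction was fixed by the minimum of reads. With it the counts were 4 and 0 of 13 (20.4% and 12.5% of all genes). In P2+ over P2- CMPs all 13 measured genes had reads in both populations, and 1 was higher and 2 lower. Of all genes with a read in both, 10.9% were higher and 12.18% lower there. In CMPs over MEPs 4 of 12 with a read in both populations were higher and 1 lower among P2- cells (21.45% and 10.42% of all such genes). With a gene without a read in P2- MEPs these were 5 and 1 of 13. Among P2+ cells 2 of 13 were higher and 7 lower (16.42% and 12.97% of all such genes).

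Of 15 other genes of the LSD1-CoREST complex, 12 of 15 measured were within 2-fold between the MEP populations, where 67.02% of all genes were. Between the CMP populations 11 of 14 were within 2-fold (67.9% of all genes), between CMPs and MEPs 11 of 14 among P2- cells (59.2% of all genes) and 9 of 15 among P2+ cells (60.3% of all genes). The share among P2+ cells, 60%, was close to that of all genes, and the other shares were between 78.6% and 80%. All genes here include those without a read in 1 population. With a read in both, 1, 1, 2 and 3 of 14, 14, 14 and 15 listed genes were higher and 1, 2, 1 and 3 lower. Of all such genes 15.66%, 10.9%, 21.45% and 16.42% were higher and 8.62%, 12.18%, 10.42% and 12.97% lower. Hmg20b, a subunit whose product binds DNA in the complex, was at 28.9, 37.7, 42.2 and 49.6 CPM. Phf21a, which encodes the histone reader BHC80 of the same complex, was at 3.37, 18.9, 31.03 and 26.1 CPM, so that it was higher in P2+ than in P2- MEPs by a log2 ratio of 2.49 (2.19 to 2.81). Kdm1b, the LSD1 relative LSD2, was at 8.92, 13.7, 22.1 and 3.55 CPM. Rcor2 and Rcor3, the relatives of Rcor1, stayed below 15 CPM.

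The NuRD, SIN3 and G9a corepressor genes include genes whose products are shared with the LSD1 complex. Of 23 measured genes 20, 22, 18 and 20 were within 2-fold in the 4 comparisons (87.0%, 95.7%, 78.3% and 87.0%, beside 67.02%, 67.9%, 59.2% and 60.3% of all genes), in the order P2+ over P2- MEPs, P2+ over P2- CMPs, CMPs over MEPs among P2- cells and among P2+ cells. With a read in both populations, 0, 1, 1 and 1 of 21, 23, 21 and 23 listed genes were higher and 1, 0, 2 and 2 lower. Of all such genes 15.66%, 10.9%, 21.45% and 16.42% were higher and 8.62%, 12.18%, 10.42% and 12.97% lower. Rbbp7, a histone chaperone, had the highest level of the list at 512, 415, 576 and 661 CPM. Chd3, a remodeller, was lower in MEPs than in CMPs, at 0, 2.19, 15.7 and 21.2 CPM. The other deacetylase genes had 8 of 9 measured, and Hdac7, a class II deacetylase gene, ran from 186 CPM in P2- MEPs through 124 and 89.0 to 39.7 CPM in P2+ CMPs. Of these 8 genes 1 was past 2-fold higher and 1 lower in P2+ over P2- MEPs (20.4% and 12.5% of all genes), and 2 higher and 1 lower in P2+ over P2- CMPs (17.4% and 14.7%). In CMPs over MEPs 1 was higher and 3 lower among P2- cells (25.8% and 15.1% of all genes), and 3 higher and 1 lower among P2+ cells (23.2% and 16.5%). The 9 relatives of Gfi1 with a SNAG domain, such as Snai1 and Insm1, were at most at 3.04 CPM, and 1 or 2 of them had the 10 reads needed in a comparison.

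Genes reported as repressed by GFI1 or GFI1B in blood cells were measured in the same comparisons. Of 18 listed genes with a read in both MEP populations, 13 were past 2-fold higher and 0 lower in P2+ than in P2- MEPs (median log2 ratio 1.96), where 15.66% of all genes with a read in both were higher and 8.62% lower. Gfi1b differed by -0.02 there and Gfi1 had no read. A further 4 genes had reads in only 1 of the MEP populations, so that their direction was fixed by the 10-read minimum, and with them the counts were 16 higher and 1 lower of 22. Megakaryocytic markers moved in the same comparison. They summed to 81.3, 562.2, 508.2 and 614.7 CPM over the populations, with single cells from 0 to 387.1, 0 to 2008, 89.8 to 995.6 and 97.7 to 1698 CPM. Of these 10 markers 5, 8, 8 and 9 had a read, Ppbp being at 0 in every population and Pf4, Gp9 and Gp1bb in P2- MEPs. Their part in these ratios was not tested. Meis1, which encodes a homeodomain factor, was at 8.005 CPM in P2- MEPs against 90.2 CPM in P2+ cells. Gata2 was at 35.2 and 212.1 CPM and Spi1 at 6.53 and 27.97 CPM. Myb was alike in both, at 236.7 and 265.1 CPM. In CMPs all 22 measured genes had reads in both populations, and 6 were higher and 0 lower in P2+ cells (median 0.31), where 10.9% of all genes with a read in both were higher and 12.18% lower. The 6 included Id1, at 36.4 and 83.6 CPM, and Id2, at 2.84 and 27.1 CPM, which encode inhibitors of basic helix-loop-helix factors.

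Between CMPs and MEPs 13 of 18 genes of this list with a read in both populations were higher and 1 lower among P2- cells (median log2 ratio 2.36), where 21.45% of all such genes were higher and 10.42% lower. Among P2+ cells 9 of 20 were higher and 2 lower (median 0.79), where 16.42% of all such genes were higher and 12.97% lower. Hoxa9, a gene of stem and multipotent cells, was at 3.01, 10.8, 109 and 115 CPM. Gata2 was below MEPs in P2+ CMPs, by a log2 ratio of -1.06 (-1.12 to -0.999), and above them among P2- cells. Several listed genes are themselves markers of multipotent and granulocyte/monocyte cells, such as Meis1, Hoxa9, Csf1r and Irf8. Markers of stem and multipotent cells summed to 11.7, 118, 649 and 1003 CPM over the populations, with Mecom, Procr and Ly6a at 0 in P2- MEPs, and ranged over single cells from 0 to 88.0, 0 to 579, 38.9 to 1799 and 242.8 to 2081 CPM. Their part in these ratios was not tested.

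Endothelial genes, which GFI1 and GFI1B are reported to silence when blood cells form, were low in MEPs. Of 13 genes, 7 to 10 had the 10 reads needed in a comparison. Since most were near 0 in P2- MEPs or in both MEP populations, they reached this minimum largely through the population in which they were high, so that counts of higher genes that involve MEPs were partly fixed beforehand and are not read as a result. Between the CMP populations, where the genes had more reads, 2 of 10 measured were higher and 0 lower in P2+ CMPs, beside 17.4% of all genes higher. Tie1, an endothelial receptor kinase, was at 0.0327, 5.51, 70.4 and 63.3 CPM, and Tek, its relative, at 1.57, 21.4, 43.1 and 31.003 CPM. Eng, the endoglin receptor of endothelium and stem cells, was at 14.1, 34.97, 95.1 and 133 CPM. Emcn had no read in MEPs and was at 25.6 and 63.7 CPM in CMPs. The genes of the list thus differed among themselves in CMPs, since Sox7, Sox17 and Mmrn2 were at 0 reads in all 4 populations and Cdh5 and Kdr at no more than 0.743 and 1.79 CPM. The 6 endothelial markers (Kdr, Cdh5, Tie1, Emcn, Pecam1 and Esam) summed to 4.77, 24.9, 190.2 and 273.4 CPM, with a median cell at 0 in both MEP populations and at 104.5 and 251.2 CPM in the CMP populations. Kdr, Cdh5 and Emcn were at 0 in P2- MEPs, Emcn also in P2+ MEPs, and all 6 had reads in CMPs. The part of endothelial cells in these values was not tested.

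**Figure D5:**
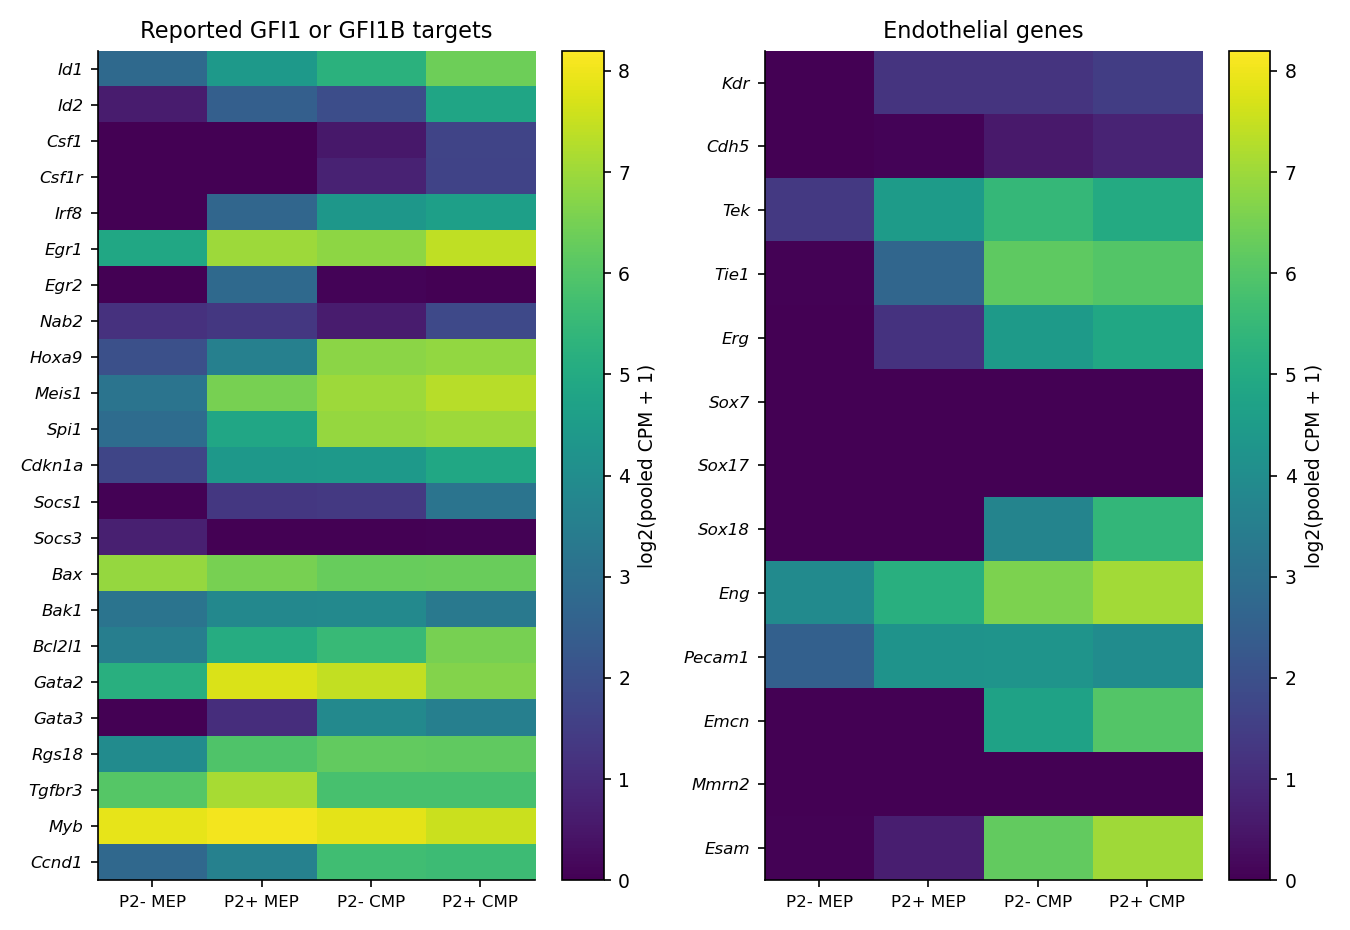
Pooled level, as log2(pooled CPM + 1) on the colour scale, of genes reported as repressed by GFI1 or GFI1B (left) and of endothelial genes (right) in the 4 populations. P2- MEPs have the lowest level for most genes in both panels, and Myb is bright in all 4 columns (183.7 to 265.1 CPM).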

How the data were processed

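Cells were sorted into plates, and a library was made from the amplified cDNA of each cell with ERCC spike-in RNA added. The authors trimmed the reads with Trimmomatic (0.36), aligned them with STAR (2.4.2a) to GRCm38 plus ERCC and obtained exon counts, ignoring strand, from HTSeq (0.6.1p1). The tool versions are those of the submitters' processing notes. The deposited values are raw counts per gene and cell, and the authors also deposited alignment statistics, of which the percent of unmapped reads was used. Of uniquely aligned reads 25.6% overlapped more than 1 gene and 7.40% overlapped none. These rows were left out. PCR copies count as separate reads.

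Cells with fewer than 250000 reads, over 25% unmapped reads or over 15% ERCC reads were removed (3 cells). Counts were summed over a population and divided by its reads on mouse genes to give CPM. Log2 ratios were taken without a pseudocount, a population at 0 being set to 3 reads over the population. Intervals at 95% were exact Poisson (levels), exact conditional binomial (ratios) and Clopper-Pearson (shares of cells). Shares and pairs used cells thinned without replacement to 100000 reads, which left out no cell. Genes compared for a like pattern had a thinned read in at least 25% of cells. No test was made, since cells of 1 pool are not replicates. The study took its cells as replicates in DESeq2, which was not repeated. Members, gene lists and alternatives were chosen with earlier results of these data known. Named genes are the members, the listed genes and the 5 genes of highest mean rho for each repressor, of which some are counted but their own values are not reported here. The ratio code was tested on simulated counts. Positions came from GENCODE M21 on the build of the counts (M12 in the counts), with gene identifiers matched for all 6 members, and promoters from RefSeq (GRCm38.p6). Python 3.11.15, numpy 2.4.6, scipy 1.17.1, pandas 2.3.3 and R 4.3.3 with DESeq2 1.42.0, for size factors, were used.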

Additional observations from a re-analysis of the deposited data

Results flagged for a closer look

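For 4 pairs of ratios the counting intervals lay on opposite sides of 0 in the 2 groups compared. With 1 sample per population the difference between the groups was not tested in any of them. Rcor1 had a log2 ratio of P2+ over P2- of -0.41 in MEPs and 0.21 in CMPs. Hdac1 had -0.13 in MEPs and 0.23 in CMPs, and Hdac2 had -0.15 in MEPs and 0.23 in CMPs. Some of these left their intervals with the mean of the cells' CPM and with DESeq2 size factors. Hdac2 in CMPs was then at 0.06 and 0.08, and Rcor1 in MEPs at -0.15 and -0.12. Hdac1 in CMPs moved the other way, to 0.40 and 0.41. Hdac2 also had a log2 ratio of CMP over MEP of -0.27 among P2- cells and 0.10 among P2+ cells, the latter being -0.05 with DESeq2 size factors. All of these are under 2-fold, and the 2 ratios of a pair share no population.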

How the results depend on the processing

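No member past 2-fold changed sign under any alternative. With ERCC reads as denominator the median log2 ratio of all genes moved by -0.62 (P2+ over P2- MEPs), 0.33 (P2+ over P2- CMPs), -0.51 (CMP over MEP, P2-) and 0.43 (CMP over MEP, P2+), and every gene moved by the same amount, so that ratios relative to that median stayed as they were. Gfi1b was then at -0.63, 0.51, -1.65 and -0.51, and Gfi1 at 0.31 in CMPs and at least 7.25 in CMP over MEP among P2- cells. Members lower by 2-fold in P2+ MEPs numbered 1, and those higher in CMP over MEP among P2+ cells 2.

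With the mean of the cells' CPM, Gfi1b was at -0.10, 0.051, -0.88 and -0.73, and with DESeq2 size factors at 0.085 (CMPs), -0.93 and -0.81 (CMP over MEP), where Gfi1 was at least 7.43 and at least 7.45. Members lower by 2-fold in CMP over MEP among P2- cells then numbered 0 and 1, in place of 2. Without the cell of highest CPM in each population, Gfi1 was at 0.61 in CMPs and at least 6.91 in CMP over MEP among P2- cells, and Gfi1b at 0.42 in CMPs and -1.34 in CMP over MEP among P2- cells, where it was -1.22 without the P2- CMP of conflicting label. With a minimum of 100 reads, listed genes lower by 2-fold numbered 2 in P2+ MEPs and 5 in CMP over MEP among P2- cells, in place of 4 and 8, fewer genes being counted. The cause of the other changes was not tested. Every deposited cell, a denominator without mitochondrial genes and Rn18s-rs5, and thinning to fewer or more reads moved no value beyond its interval. Over all alternatives 104 log2 ratios of members stayed within the interval of the reported value and 57 left it. Requiring 5 reads in place of 1 moved 7 of the shares of cells with a read, all of them lower and all of corepressor genes.

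The order of members per length without the cell of highest CPM and by the median cell, and the counts of listed genes with a read in both populations, were examined after the data were seen. No paired analysis was possible because each population is 1 pooled sample. Gfi1 rests on 391 and 767 reads of 5 and 11 cells, and the number of cells with a read hardly moved with depth (5 of 27 P2- CMPs at each depth, 10 or 11 of 42 P2+ CMPs). Amplified copies of 1 cDNA molecule count as separate reads, so intervals are too narrow as a measure of the populations.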
